A study of Proteus anguinus with 14 samples.

Results

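The developmental transcription factor families were examined across 6 organs of the olm (Proteus anguinus), a cave salamander. They comprise homeobox families (among them HOX, PAX, LHX, DLX and MEIS), the T-box (TBX), forkhead (FOX), SOX and GATA families, and the hepatocyte nuclear factors (HNF). Genes were taken by the symbol that the table gives them, and 75 of its 18924 assembled genes carried a symbol of these families. They represent 67 distinct symbols. For the 8 symbols with 2 assembled genes, the copy with the higher mean was kept. Of the 67, 59 reached a level of at least 1 TPM (a gene's share of all transcripts, corrected for length) in at least 2 of the 14 samples, and these are the members described here. They include 16 FOX, 12 HOX, 9 SOX, 5 LHX, 5 TBX, 3 DLX, 3 HNF, 2 PAX, 1 MEIS and 1 GATA gene. TBXAS1, also among the 59, encodes the enzyme thromboxane synthase and was included only because its symbol starts with the same letters as the T-box genes. IRX, PITX and HAND symbols were searched for, and no row analysed here carried one. The 8 symbols left out by the minimum were FOXF2, FOXP4, FOXR1, HOXA3, HOXB2, LHX3, SIX4 and TBX20, with highest values between 0.310 and 1.58 TPM. Just inside the minimum, FOXD3, GATA1, LHX5 and SOX8 reached 1 TPM in 2 samples, and FOXE1, HOXB9, HOXC9 and TBX18 in 3. LHX5 and SOX8 passed through the brain samples only, so that a difference of brain from the rest follows in part from the minimum itself. The same holds in skin for HOXB9, HOXC9 and TBX18, which reached 1 TPM in both skin samples and in 1 other sample.

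The study assembled the olm transcriptome and measured the RNA of untreated organs to describe where its genes are active. Brain, gut, heart and skin are represented by 2 samples each, and liver and lung by 3 each. All came from 3 wild olms (p4, p5 and p6) that served as non-infected controls in an infection study, and their organs were stored in RNAlater. Organs follow the sample titles, because the tissue entries swap heart for gut, and lung for liver. Titles and the supplement's list of samples disagree on the animal of 2 samples: the gut sample titled p5 is listed as p6, and the heart sample titled p6 is listed as p5. In bulk organs, fewer cells of a type and less RNA per cell cannot be told apart.

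For comparison of organs, each sample was scaled by a factor, the median ratio of 13067 genes detected everywhere to their geometric means, and the scaled values are called normalized TPM. The factor was 2.14 and 2.15 in brain, and 0.519 to 1.46 in the other samples. The number of counted reads behind each value is unknown, so the spread of the samples stands for precision. The summed markers of each titled organ were highest in that organ, although ABCA3 of the lung list was called higher in heart (17.9 and 6.02, against at most 0.365 elsewhere). Neuronal genes reached 2277 and 1502 normalized TPM in brain against at most 67.5 elsewhere, and heart muscle genes 26603 and 16484 in heart against at most 435 elsewhere. Hepatocyte genes reached 102518 to 206997 in liver, and also 21159 in lung p5 and 15770 in lung p6, against 432 in lung p4. Skeletal muscle genes reached 63019 and 68282 in skin, 18149 in the p6 brain and 22807 in the p6 heart sample, against 1542 in the p4 brain and 2368 in the p4 heart sample and at most 672 elsewhere.

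Transcription factors of these families bind DNA and turn on the gene programs that give embryonic cells their position and organ identity, and many stay active in the adult organ. HOX genes lie in the clusters A to D, and their number follows their order: low-numbered genes act toward the head, high-numbered genes toward the tail, while the forebrain and midbrain of vertebrates form without HOX activity. LHX, DLX and PAX genes pattern the forebrain and its neurons, FOXA and HNF4 proteins govern epithelia that arise from endoderm, such as those of gut, liver and lung, and DLX3 and FOXI factors act in the epidermis.

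Members were spread unevenly over the organs. The highest organ mean was found in skin for 19 members, in brain for 18, in gut for 10, in lung for 5, in liver for 4 and in heart for 3. Skin thus held 32.2% of the members, against 15.1% of all 16317 genes tested, while brain held 30.5% against 29.2%. Of the 59 members, 15 reached 1 TPM in every sample and 14 did so in 5 samples or fewer. By a moderated F-test in limma, 36 of the 59 members (61%) differed among the organs, against 34.2% of all genes tested (5580 genes). When each organ was set against all other samples by limma, 18 members were higher in an organ and 2 were lower, and 17 others passed the F-test but no test of a single organ. The call required an adjusted p under 0.05 over all genes and a difference of more than 1 in log2(normalized TPM + 1), a scale that understates changes of low genes.

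**Figure D1:**
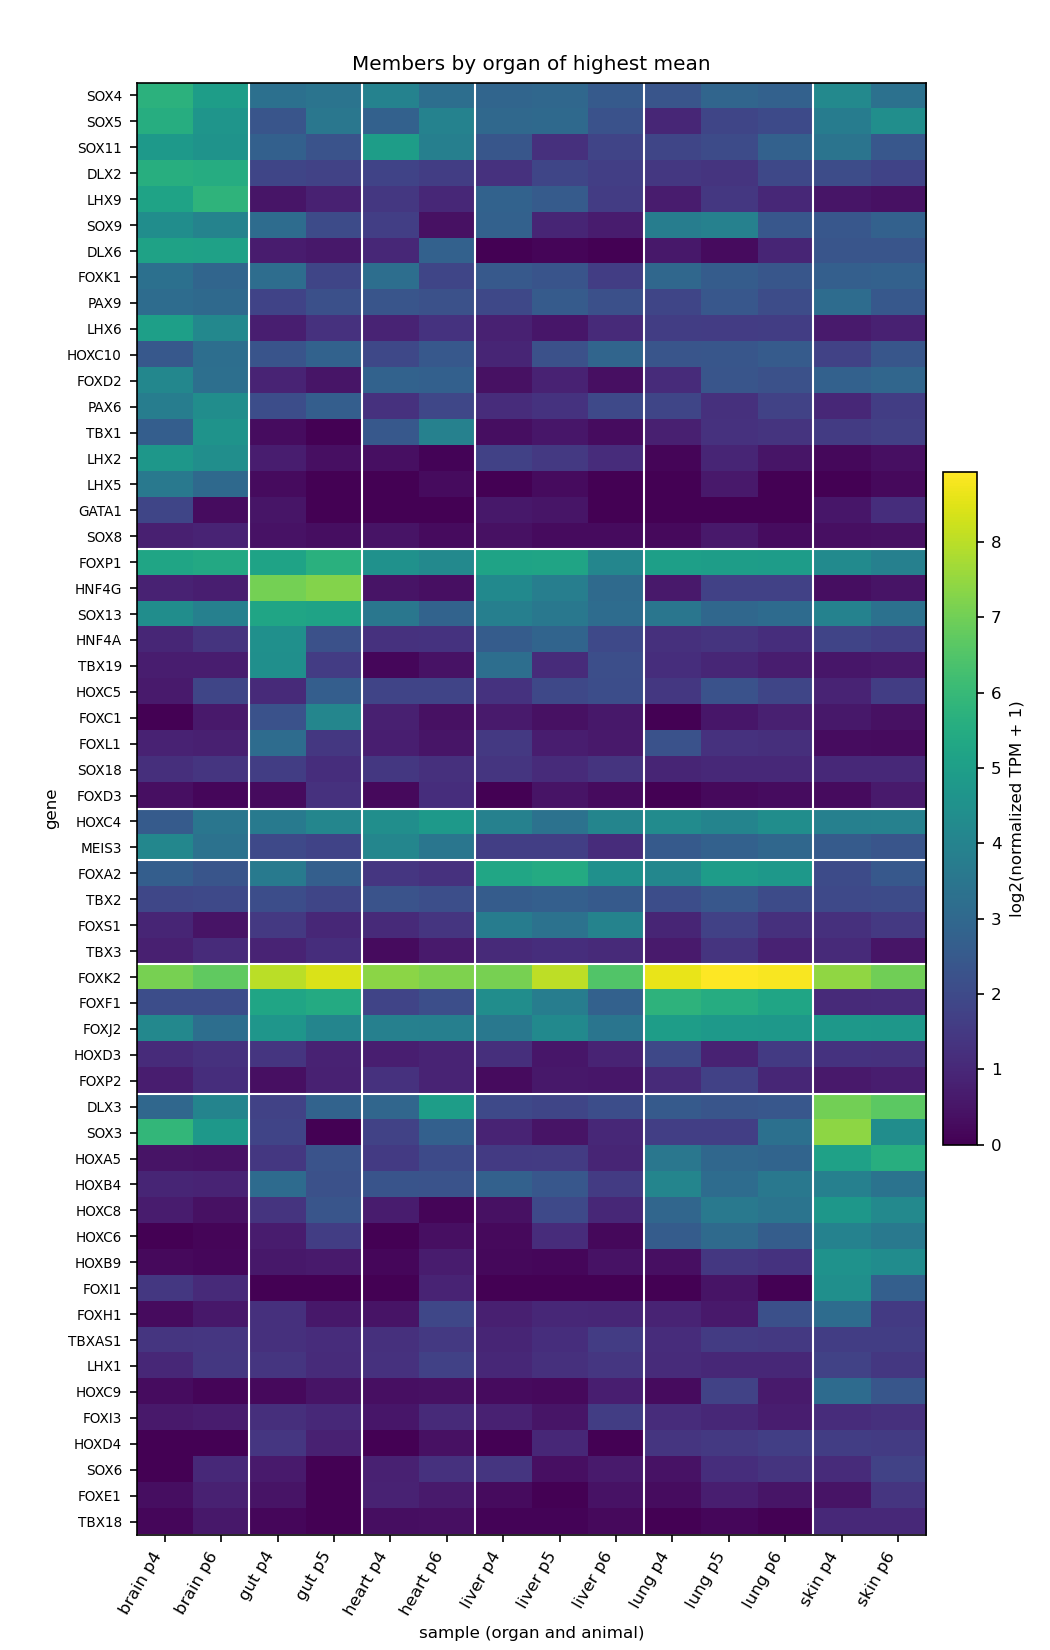
Level of 56 of the 59 members (down the page, grouped by the organ of their highest mean) in the 14 samples (across), as log2(normalized TPM + 1). The brain block holds 18 members and the skin block 17, and FOXK2 has the highest value of any member in every sample, from 89.7 to 484 normalized TPM.

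In brain, 9 members (15.3%) were higher than in all other samples, against 11.2% of all genes tested. Of these, 4 were LHX genes and 2 were DLX genes, and PAX6, SOX4 and SOX5 completed the group. The median difference of the 59 members was 0.07, against 0.04 for all genes. When each organ was given its own mean and brain was set against the mean of the other 5 organs, 16 members were higher, against 13.7% of all genes.

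The LIM homeobox genes were the clearest group, with 4 of 5 members higher in brain. LHX2 and LHX9, which specify cortical and thalamic territories of the forebrain in mammals, lie on the same assembly component, so reads may be shared between them. LHX9 measured 34.7 and 55.1 normalized TPM in brain, against 0.308 to 5.97 in the others, the highest of which were the liver samples (4.26 in log2, standard error 0.55, adjusted p = 5.89e-05). LHX2 measured 25.2 and 20.05 in brain, against 0.0633 to 2.28 elsewhere, again with liver next (3.89, standard error 0.39, adjusted p = 3.76e-06). LHX6, a factor of cortical interneurons, measured 31.8 and 16.7 in brain, against 0.444 to 2.06 elsewhere (3.52, standard error 0.33, adjusted p = 1.84e-06). For each of the 3 genes both brain samples lay far above every other sample. LHX5, a forebrain factor whose place among the members rests on brain alone, measured 11.1 and 7.33 in brain and at most 0.518 elsewhere. It is counted among the 9, although the minimum alone made a difference likely, and without either brain sample it fell below the minimum. LHX1, an organizer and kidney factor on the same component as LHX5, was low and even at 0.979 to 2.37 in all organs.

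DLX2 and DLX6, which drive the formation of inhibitory neurons in the basal forebrain, share an assembly component and were similarly restricted. DLX2 measured 47.3 and 44.5 in brain, against 1.42 to 3.21 elsewhere (3.85, standard error 0.24, adjusted p = 2.82e-08). DLX6 measured 34.0 and 33.2 in brain, against 0 to 5.78 elsewhere (4.14, standard error 0.66, adjusted p = 0.00042). The highest DLX6 values outside brain came from the p6 heart sample (5.78) and the skin samples (4.12 and 4.11), and all liver samples were at or below 0.101.

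PAX6, a master regulator of eye and forebrain, measured 12.8 and 20.0 in brain, against 0.967 to 5.30 elsewhere, with gut next at 3.30 and 5.30 (2.44, standard error 0.37, adjusted p = 0.000299). The brain samples did not overlap the others. PAX9, a factor of the pharyngeal pouches and teeth and the other PAX member, measured 7.99 and 7.26 in brain, but the p4 skin sample reached 7.92, and no organ test passed (0.84 in brain, adjusted p = 0.0731).

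Among the SOX genes, 4 members lie on a common assembly component (SOX3, SOX4, SOX9 and SOX11), so that reads may have been divided among them. SOX4, a factor of maturing neurons, measured 51.7 and 30.4 in brain, against 4.10 to 17.5 elsewhere (2.19, standard error 0.41, adjusted p = 0.00174). SOX5, which acts in cortical neurons and cartilage, measured 46.6 and 24.2 in brain, against 0.922 to 20.3 elsewhere (2.29, standard error 0.69, adjusted p = 0.0325). Both were above all other samples, yet without the p4 brain sample neither passed (adjusted p = 0.138 for SOX4 and 0.527 for SOX5), and SOX5 also failed without the p6 brain sample (0.084) and with the animal as a block (0.0555). SOX11, the close relative of SOX4, was as high in heart (29.95 and 13.6) as in brain (26.4 and 22.7), against 1.34 to 9.90 in the remaining samples. SOX9, a factor of glia, cartilage and airway, was highest in brain (19.8 and 15.0) and in 2 of the lung samples (12.6, 14.0 and 4.34).

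SOX3, a factor of neural progenitors, is represented by 2 assembled genes with different patterns. The copy with the higher mean measured 169.0 and 19.9 in skin and 59.1 and 26.1 in brain, against 0 to 8.80 in the other organs, and the p4 skin sample was far above the p6 skin sample. The other copy measured 49.8 and 39.6 in brain, against 0.523 to 3.29 elsewhere (4.32, standard error 0.32, adjusted p = 1.4e-07). Brain samples were thus clearly apart only for the copy that the selection left out, and which of the 2 copies is the true SOX3 was not tested.

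**Figure D2:**
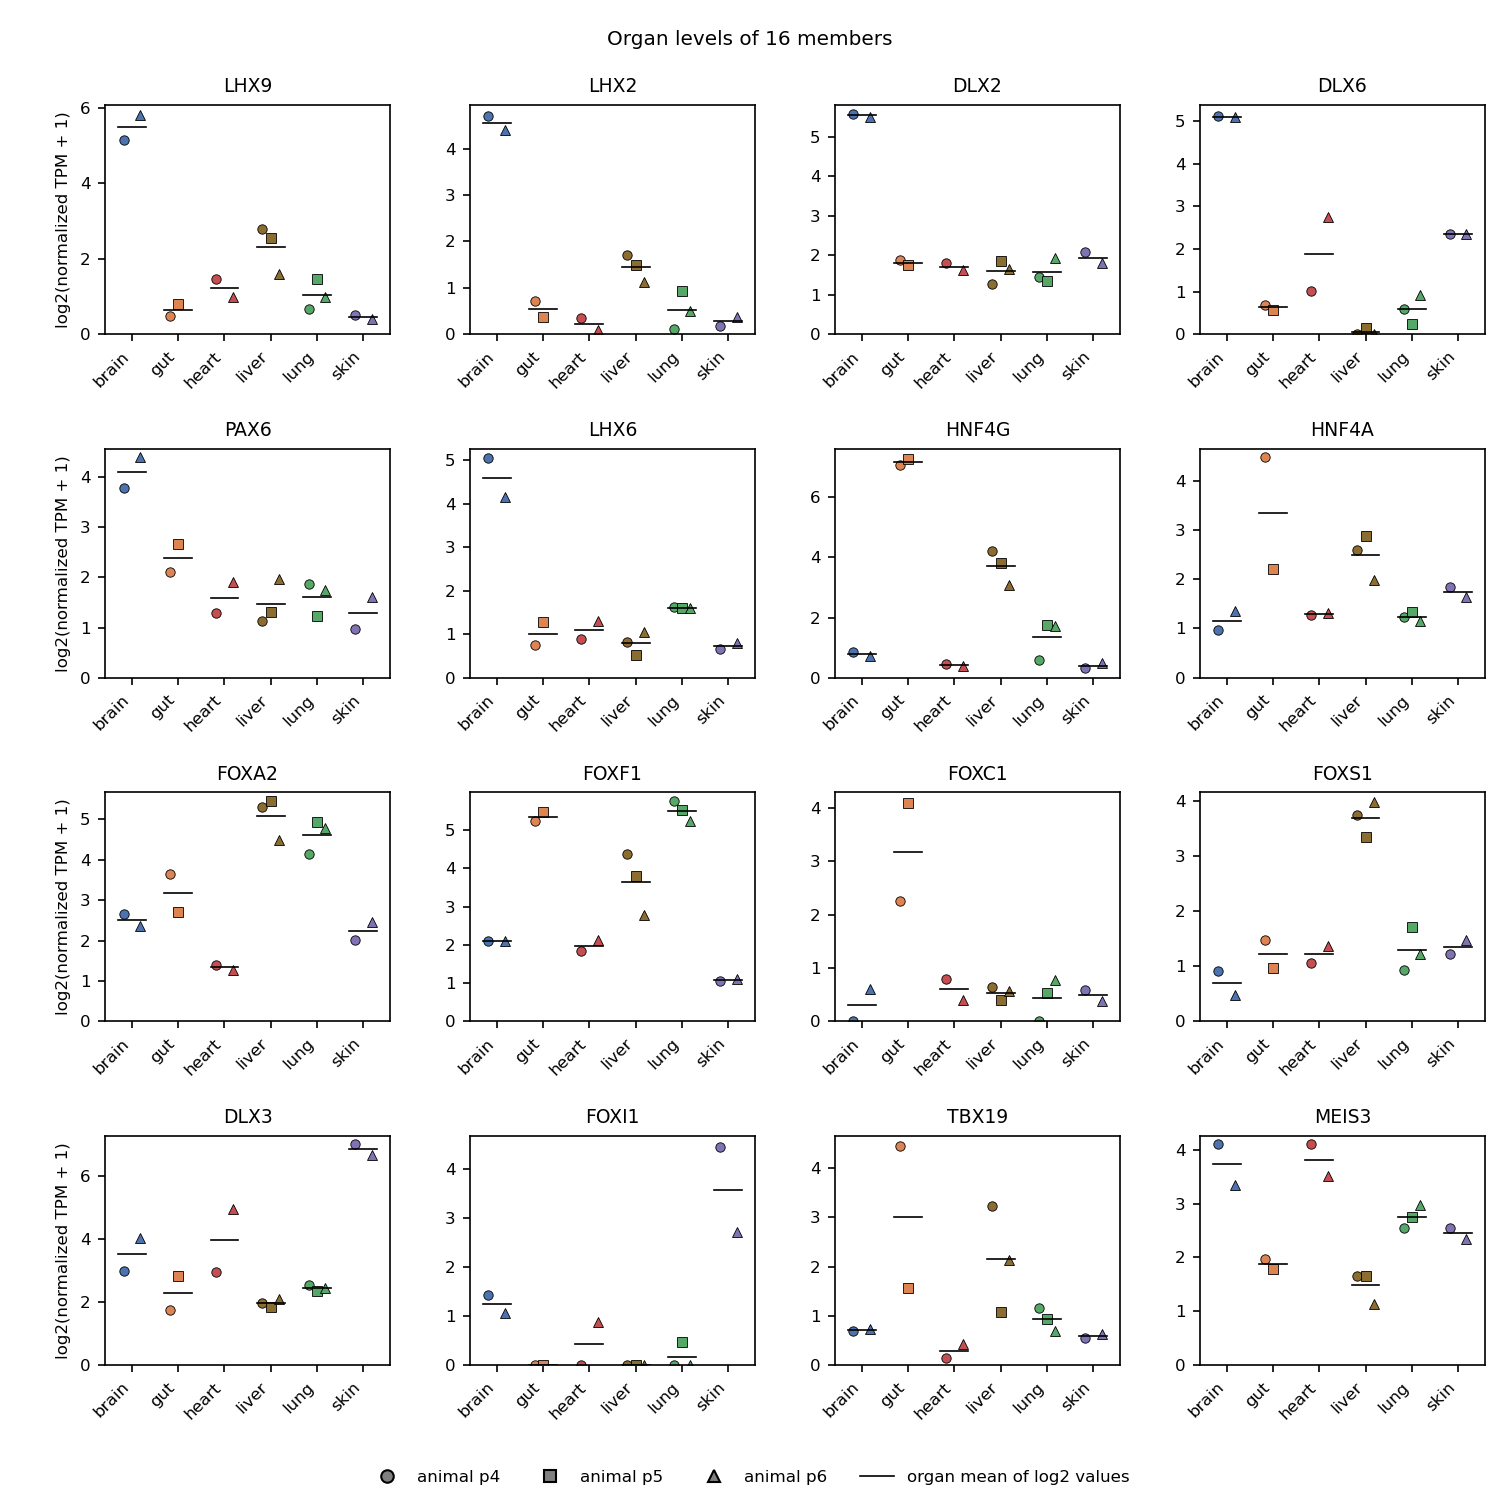
Levels of 16 members by organ on a log2(normalized TPM + 1) axis, with a point for each sample (shape, animal) and a bar for the organ mean of the log2 values. Brain points stand apart for LHX9, LHX2, DLX2, DLX6, PAX6 and LHX6, gut points for HNF4G and FOXC1, liver points for FOXS1 and skin points for DLX3 and FOXI1.

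For HOX genes the order was different, and 2 members (3.39%), both of them HOX genes, were lower in brain, against 3.36% of all genes tested. HOXB4 measured 0.878 and 0.840 in brain, against 1.91 to 15.6 elsewhere (difference -2.00, standard error 0.53, adjusted p = 0.0165), and the brain samples were the lowest of all. HOXC4 measured 4.85 and 10.3 in brain, against 9.20 to 26.5 elsewhere (-1.04, standard error 0.33, adjusted p = 0.0433), and the p6 brain sample lay above the p5 liver sample. These calls depended on the scaling. With TPM as deposited, which moved the median of all genes in brain by 0.93 in log2, the difference of HOXB4 was -1.22 (adjusted p = 0.0626), that of HOXC4 turned to 0.14, and 23 members were higher and none lower. HOXB4 also failed without the p4 or the p6 brain sample (adjusted p = 0.27 and 0.117), and HOXC4 failed when any of 10 samples was left out and with the animal of the supplement's list as a block (0.0591). In the model with a mean for each organ, 9 members were lower in brain, against 7.64% of all genes, among them 6 HOX genes (HOXA5, HOXB4, HOXB9, HOXC4, HOXC6 and HOXC8).

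In skin, 5 members (8.47%) were higher than in the other organs, against 1.94% of all genes tested. They were DLX3, FOXI1 and 3 HOX genes, of which HOXB9 and HOXC9 met the minimum only through skin, and the median difference of the 59 members was 0.09, against -0.07 for all genes. In the model of organ means, 11 members were higher, against 5.23% of all genes, 7 of them HOX genes. DLX3, a regulator of epidermal differentiation, measured 127 and 101 in skin, against 2.37 to 30.01 elsewhere (4.11, standard error 0.64, adjusted p = 0.00176). The next highest samples were the p6 heart (30.01) and p6 brain (15.3) samples, while their p4 counterparts measured 6.72 and 6.97. The summed epidermal markers were 5307 and 1994 in skin. In heart they were 7.72 in the p6 and 35.4 in the p4 sample, the reverse of the DLX3 order. In brain they were 200.1 in the p6 and 118.5 in the p4 sample. The part of epidermal tissue in the DLX3 values was not tested. FOXI1, a factor of ion-transporting cells in frog epidermis, measured 21.0 and 5.55 in skin, against 0 to 1.71 elsewhere (3.27, standard error 0.44, adjusted p = 0.000426), and it was at 0 in 8 of the 14 samples. Both genes lost the call without the p4 skin sample (adjusted p = 0.0908 for DLX3 and 0.0583 for FOXI1), whereas their direction was kept.

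TBX18, a factor of mesenchyme and hair follicle papilla in mammals, stood at 1.06 and 1.04 in skin, against 0 to 0.481 elsewhere, with an adjusted p of 0.0099 but a difference of 0.86, under the fold required. TBX18 met the minimum only through skin, so this difference follows in part from the minimum itself. FOXI3 and FOXE1, which act in skin appendages and thyroid of mammals, measured at most 2.06 and 1.58 in any sample and differed in no test.

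TBX1, a factor of the pharyngeal arches and head muscles, measured 5.27 (p4) and 22.8 (p6) in brain and 4.55 (p4) and 14.0 (p6) in heart, but only 1.95 and 2.25 in skin. In heart and in brain, the p6 sample exceeded the p4 sample for TBX1, as it did for the summed skeletal muscle markers (22807 against 2368 in heart, 18149 against 1542 in brain). MYF5 and MYF6, regulators of muscle cells, followed the same order in heart: MYF5 measured 32.8 in the p6 and 6.33 in the p4 sample, and MYF6 measured 119.97 in the p6 and 16.3 in the p4 sample. TBX1 was not called in brain (2.40, adjusted p = 0.0515), but passed with the animal of the supplement's list as a block (0.047). It also passed with TPM as deposited (0.00398), in the model of organ means (0.002) and with 5 added before the logarithm (0.0392). Without the p4 or the p6 heart sample the brain difference was 2.49 and 2.63. In skin, where the muscle sum was highest, TBX1 was low. The part of muscle tissue in these values was not tested.

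**Figure D3:**
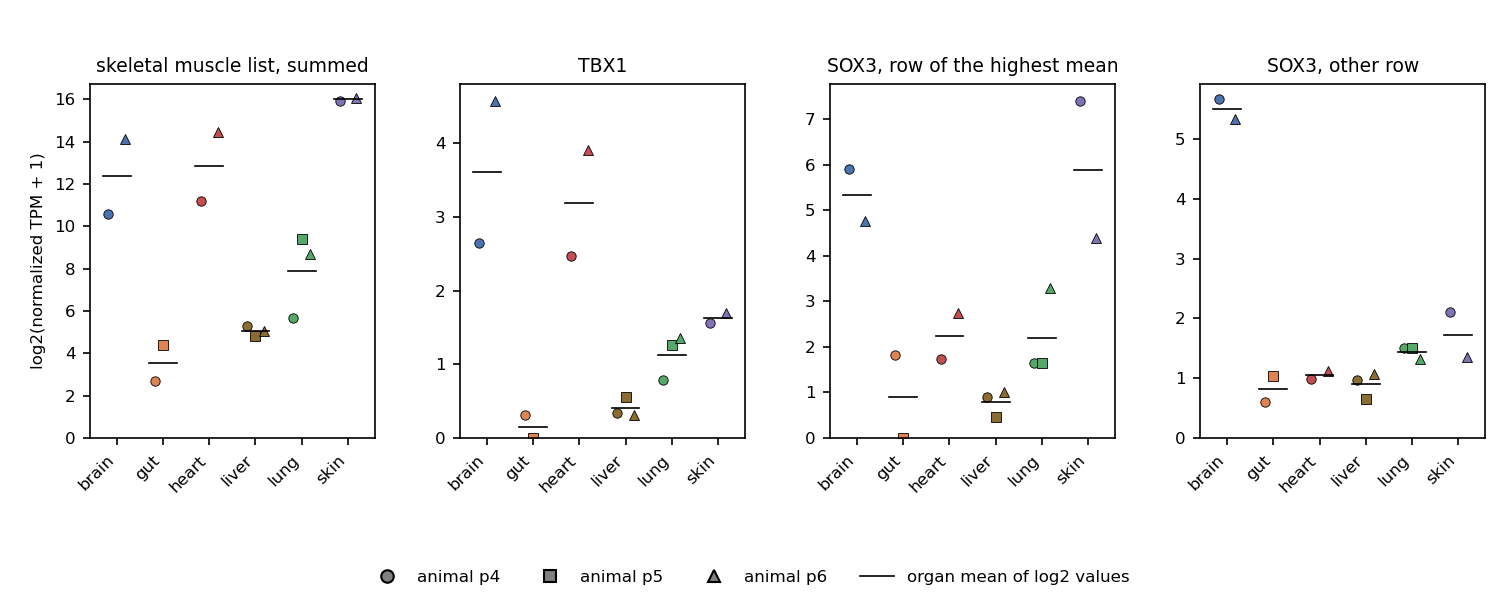
Summed skeletal muscle markers, TBX1 and the 2 assembled copies of SOX3 by organ, as log2(normalized TPM + 1), with a point for each sample and a bar for the organ mean of the log2 values. The p6 brain and p6 heart points lie above the p4 points for the muscle markers and TBX1, and the other copy of SOX3 is high in brain alone.

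In gut, 3 members (5.08%) were higher, against 1.86% of all genes tested, and the median difference was -0.19 for the members and -0.09 for all genes. HNF4G, a nuclear receptor of intestinal cells, had the largest difference of any member in any organ. It measured 132 and 153 in gut, against 0.247 to 17.7 elsewhere (5.63, standard error 0.94, adjusted p = 0.0028). Liver followed at 17.7, 12.95 and 7.42, and all remaining samples were at or below 2.33, so the groups did not overlap. Leaving out either gut sample raised the adjusted p to 0.0657 and 0.0698, with differences of 5.74 and 5.54. FOXC1, a factor of vessels and mesenchyme, measured 3.76 and 15.97 in gut and at most 0.729 elsewhere (2.69, standard error 0.34, adjusted p = 0.000185). The p5 gut sample was well above the p4 sample, but both exceeded every other sample, and the call held under each alternative tried. SOX13, a SOX factor of lymphoid and other tissues, measured 36.7 and 35.4 in gut, against 6.18 to 19.8 elsewhere (1.70, standard error 0.35, adjusted p = 0.0172), and it did not pass without either gut sample (0.221 and 0.183) or with TPM as deposited (0.492), where the p4 brain sample was highest at 42.2.

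HNF4A, the relative of HNF4G known as a regulator of hepatocytes and enterocytes, measured 21.2 and 3.64 in gut, against 0.955 to 6.31 elsewhere, and the p5 gut sample lay below 2 of the liver samples (1.71, adjusted p = 0.165). TBX19, which activates pro-opiomelanocortin in the pituitary, showed the same split, with 20.8 in the p4 and 1.97 in the p5 gut sample, against 0.102 to 8.39 elsewhere. FOXL1, a marker of mesenchymal cells under the gut epithelium, measured 7.99 and 1.71 in gut, against 0.202 to 3.75 elsewhere. For these 3 genes the p4 gut sample was the highest of all 14. In the model of organ means, 7 members were higher in gut, against 5.58% of all genes, and HNF4A, TBX19, FOXL1 and FOXF1 were among them.

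In liver, 1 member (1.69%) was higher, against 2.29% of all genes tested, with a median difference of -0.41 for the members and -0.06 for all genes. The assembled gene named FOXS1 measured 12.4, 9.20 and 14.9 in liver, against 0.392 to 2.28 elsewhere (2.53, standard error 0.26, adjusted p = 0.000156), without overlap. Its description in the table is that of an interferon-regulatory factor and not of a forkhead protein, so that the symbol is uncertain. FOXA2, a pioneer factor of endodermal organs, was highest in liver at 38.3, 43.0 and 21.5, but lung followed at 16.6, 29.7 and 26.3 and overlapped it, and the test of liver against the rest did not pass (2.14, adjusted p = 0.186). The summed hepatocyte markers were 432, 21159 and 15770 in the same lung samples, and with p5 and p6 lung left out FOXA2 passed (2.58, adjusted p = 0.0187). The part of liver transcripts in the lung values was not tested. TBX2 and TBX3, which act in heart conduction tissue and limbs and share an assembly component, were even across organs, with 2.68 to 5.48 for TBX2 and 0.192 to 1.56 for TBX3. In the model of organ means, 3 members were higher in liver (FOXA2, FOXS1 and HNF4G), against 4.6% of all genes.

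No member was higher in lung or in heart by limma against all other samples, where 0.821% and 0.723% of all genes tested were. At an unadjusted p under 0.05, 7 members (11.9%) were higher in lung, against 5.42% of all genes, and 3 (5.08%) in heart, against 5.79%. The median difference was -0.06 for the members and -0.09 for all genes in lung, and -0.36 and -0.06 in heart. In the model of organ means, 6 members were higher in lung, against 2.67% of all genes, and 3 were higher in heart, against 3.49%.

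FOXF1, a factor of the mesenchyme of lung and gut, measured 53.1, 45.1 and 36.7 in lung and 36.7 and 43.3 in gut, against 5.86 to 19.7 in liver and 1.07 to 3.39 in brain, heart and skin. Lung and gut were both above all other organs and overlapped each other, and the test of lung alone did not pass (2.60, adjusted p = 0.285). FOXK2, a ubiquitous forkhead factor, lies on the same assembly component as FOXK1, so reads may be shared between them. FOXK2 was the most abundant member with 391, 484 and 449.8 in lung, against 89.7 to 341 elsewhere (1.43, adjusted p = 0.0906). All lung samples exceeded every other sample, though not with TPM as deposited (203, 358 and 271, against 333 in gut p5), and without the p5 gut sample or after quantile normalization the gene passed (adjusted p = 0.032 and 0.0156). GATA1, the factor of red cell precursors, was listed at 0 in 7 of the 14 samples, among them all 3 lung samples and both heart samples. GATA1 reached its maximum of 2.64 in the p4 brain sample. Red cell transcripts summed to 565722 to 1049730 normalized TPM in lung, their highest levels.

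In heart, MEIS3 and SOX11 had the largest unadjusted support among the higher members. MEIS3, a partner of HOX proteins in the hindbrain of frogs, measured 16.3 and 10.45 in heart and 16.3 and 9.21 in brain, against 1.199 to 6.83 elsewhere, so that the 2 organs shared the high level (heart 1.41, adjusted p = 0.529). Of the heart factors listed, TBX2, TBX3, TBX18 and FOXC1 were members and none was highest in heart. TBX20, a cardiac T-box gene, reached 1 TPM in 1 sample only, the p4 brain sample, and in no heart sample.

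To cover regulators shared by organs, the mean of gut, liver and lung was set against the mean of brain, heart and skin. By limma, 5 members (8.47%) were higher in gut, liver and lung, against 5.04% of all genes, and 16 (27.1%) were lower, against 6.66% of all genes (7 and 13 members after quantile normalization). The median difference was -0.19 for the members and -0.06 for all genes. HNF4G (3.53, standard error 0.24, adjusted p = 1.61e-06), FOXF1 (3.11, standard error 0.23) and FOXA2 (2.26, standard error 0.23) led the higher members, and TBX19 (1.503) and FOXL1 (1.03) followed. FOXF1 did not overlap between the sides, with 5.86 or more in gut, liver and lung against at most 3.39 in brain, heart and skin. FOXA2 did not overlap either, with 5.55 or more against at most 5.34. With TPM as deposited both did, since brain reached 7.12 for FOXF1 and 11.4 for FOXA2, against lowest values of 4.30 and 5.41 in gut, liver and lung. HNF4G did overlap, since the p4 lung sample measured 0.512. Leaving out 1 sample ended the call of TBX19 in 4 cases and that of FOXL1 in 5.

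Among the lower members were all 3 DLX genes, TBX1, FOXD2, FOXI1, MEIS3, HOXB9, the LHX genes LHX5, LHX6 and LHX9, and SOX3, SOX4, SOX5 and SOX11. Such a call does not show a level shared by brain, heart and skin. DLX2, DLX6, LHX5, LHX6, LHX9, SOX4 and SOX5 were also called higher in brain, and DLX3, FOXI1 and HOXB9 in skin. LHX9 averaged 4.28 in liver, against 1.36 in heart and 0.362 in skin. LHX5 and HOXB9 met the minimum only through brain and skin. SOX3 had the largest difference (-3.20, standard error 0.50, adjusted p = 0.000561), and DLX6 (-2.70, standard error 0.25) and DLX3 (-2.53, standard error 0.31) were also strongly lower. LHX6 (-1.002), LHX9 (-1.05), LHX5 (-1.06) and HOXB9 (-1.05) were close to the fold required, and LHX6 fell short of it with the animal as a block (-0.996). Leaving out 1 sample ended the call of LHX6 and that of LHX9 in 5 cases each, and those of LHX5 and HOXB9 in 2 each. FOXD2, a factor of kidney and facial mesenchyme, measured 16.5 and 8.48 in brain, 5.92 and 5.72 in heart and 5.86 and 6.67 in skin, against 0.279 to 4.05 in gut, liver and lung (-2.06, standard error 0.24, adjusted p = 6.57e-05), with no overlap. Without the p6 brain and p6 heart samples, 3 members were higher and 14 lower.

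The HOX genes were compared by organ and described by position number, for which no test was made. In skin, all 12 HOX members reached 1 normalized TPM in the p6 sample and 11 in the p4 sample. In lung 10 did so in each sample, in gut 8 and 7, in heart 6 and 6, in liver 5 to 7, and in brain 3 and 4. At 1 TPM as deposited the counts were 7 to 10 in lung, 4 to 6 in liver and 7 and 6 in brain. Summed normalized TPM of the 12 genes were 143 and 134 in skin, 64.4 to 69.0 in lung, 32.4 and 44.1 in gut, 34.7 and 45.2 in heart, 26.8 to 32.6 in liver and 13.8 and 25.2 in brain. On this scale skin and lung stood apart from all other organs, whereas gut and heart overlapped each other, and so did gut and liver at 32.4 and 32.6. With TPM as deposited, a scale added after the data were seen, skin still stood apart at 152 and 143, but the lung sums (35.8, 47.7 and 39.6) overlapped gut and brain and lay below heart (50.8 and 49.8), and liver was lowest at 20.3 to 23.9, against 29.4 and 54.1 in brain. By the F-test 8 of the 12 HOX genes differed among organs, against 36 of the 59 members and 34.2% of all genes tested. The 8 include HOXB9 and HOXC9, which met the minimum only through skin, so that their difference among organs follows in part from the minimum itself. The same holds for their part in the skin counts and sums.

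**Figure D4:**
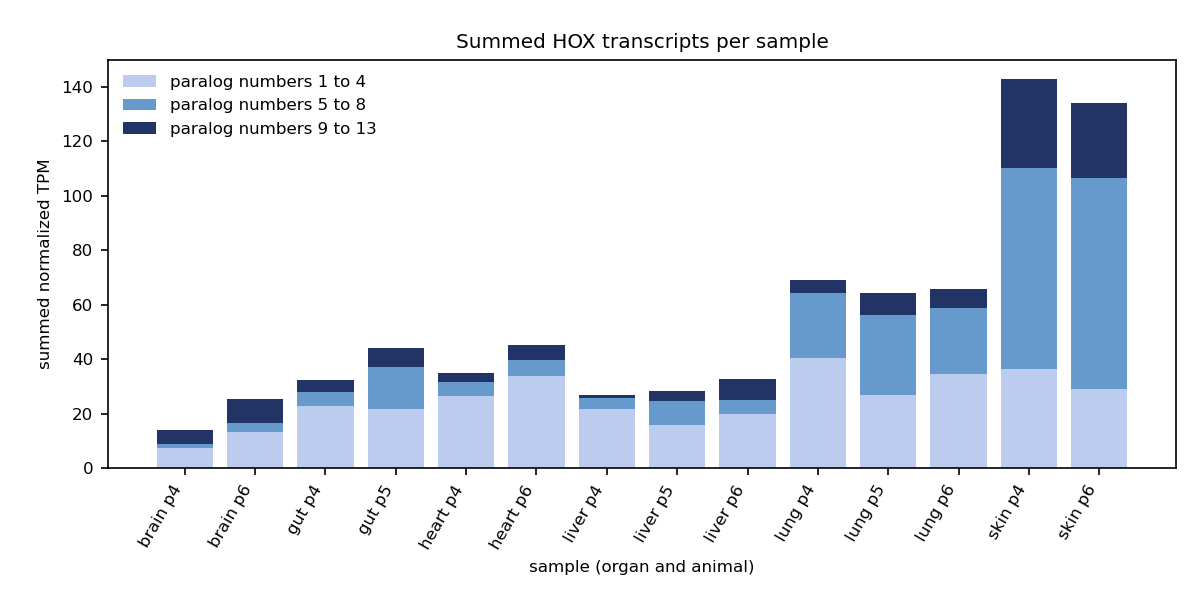
Summed normalized TPM of the HOX members in each sample, stacked by position number: 5 genes numbered 1 to 4, 4 genes numbered 5 to 8 and 3 genes numbered 9 to 13. The last group holds only HOXB9, HOXC9 and HOXC10. The skin bars reach 143 and 134, the lung bars 64.4 to 69.0, and brain p4 has the lowest bar at 13.8.

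The low-numbered genes (1 to 4, toward the head) held 76.4% and 75.1% of the HOX sum in heart and 55.4% to 81.1% in liver. They held 70.6% and 49.3% in gut, 53.3% and 52.7% in brain and 41.4% to 58.4% in lung, and the least in skin (25.4% and 21.7%). In heart their sums were 26.5 and 33.9, of which HOXC4, which did not pass the F-test, made up 20.0 and 26.5. Genes numbered 5 to 8, which act along the neck and trunk, held 51.7% and 57.8% in skin and 34.9% to 45.5% in lung, against 11.3% and 13.3% in brain and 14.4% and 12.99% in heart. The p5 gut sample (34.9%) and the p5 liver sample (30.9%) were above the other gut and liver samples (15.3%, and 14.3% and 16.4%). The genes numbered 9 and above were HOXB9, HOXC9 and HOXC10. No row analysed here carried a higher-numbered HOX symbol, so the positions nearest the tail are not covered. These genes held 22.9% and 20.5% in skin. Most of this came from HOXB9 (22.5 and 19.0) and HOXC9 (7.73 and 4.29), which met the minimum only through skin. In brain, genes numbered 9 and above held 35.3% and 34.0% and consisted almost wholly of HOXC10 at 4.48 and 8.36. HOXC10 did not differ among organs by the F-test (adjusted p = 0.663). Its second copy, not in these sums, was lowest in brain at 0.354 and 0.271, against 0.532 to 6.93 elsewhere, so the brain share depends on the copy used.

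Called higher in skin were HOXB9, HOXC9 and HOXA5. HOXB9 and HOXC9 met the minimum only through skin, so their skin difference follows in part from the minimum itself. HOXB9, which patterns the rib-bearing trunk, measured 22.5 and 19.0 in skin, against 0.108 to 1.75 elsewhere (3.91, standard error 0.33, adjusted p = 7.26e-06). HOXC9, its neighbour in position, measured 7.73 and 4.29, against 0.0876 to 2.41 elsewhere (2.28, standard error 0.34, adjusted p = 0.00107). HOXA5, known in mammals for lung and trunk patterning, measured 33.4 and 47.0 in skin, against 0.344 to 10.7 elsewhere (3.55, standard error 0.67, adjusted p = 0.0082). For all 3, skin lay above every other sample, and for HOXA5 the 3 lung samples (10.7, 6.95 and 6.38) came next and brain last. HOXB9 kept the call under each alternative, but HOXA5 lost it without either skin sample (adjusted p = 0.14 and 0.194), and HOXC9 without the p4 skin sample (0.105).

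HOXC6 and HOXC8, trunk genes of the C cluster, were graded from skin through lung to the other organs. HOXC6 measured 14.3 and 11.2 in skin and 5.06, 7.50 and 5.20 in lung, against at most 2.05 in gut, heart, liver and brain. HOXC8 measured 25.2 and 17.3 in skin and 6.62, 11.1 and 9.90 in lung, against at most 4.14 in the remaining organs. Skin, lung and the remaining organs did not overlap for either gene (with TPM as deposited, HOXC8 did, at 3.44 in lung p4 against 4.03 in gut p5), and by the F-test both differed (adjusted p = 4.58e-05 and 0.000157), although skin against all others did not pass (0.0997 and 0.113). In gut, liver and lung, the sample titled p5 had the highest HOXC6 and HOXC8 of its organ. For HOXC8 it measured 4.14 in gut, against 1.56 in p4, and 2.87 in liver, against 0.330 and 0.968 in p4 and p6. By the supplement's list the gut sample is from p6 and the heart sample titled p6 is from p5. In that heart sample HOXC8 was the lower of the pair (0.0976 against 0.607), so for HOXC8 the order by animal held by title only. HOXC6 was the higher of the pair there (0.298 against 0), near the floor, so for HOXC6 the order held by the list as well.

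HOXB4 was highest in lung (15.6, 7.80 and 10.9) and skin (13.8 and 9.45), and HOXD4 was low but showed a like order, with 1.62 to 2.19 in lung and 2.05 and 1.90 in skin, against 0 in both brain samples and at most 1.66 elsewhere. HOXC4, HOXC5, HOXC10 and HOXD3 did not pass the F-test. HOXC4 was the most abundant HOX gene in every sample outside skin, where HOXA5 exceeded it, with its maximum in heart (20.0 and 26.5). HOXC10 measured 0.889 to 8.36, HOXC5 0.571 to 5.35 and HOXD3 0.448 to 2.86, and no organ stood apart from all others for these genes.

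**Figure D5:**
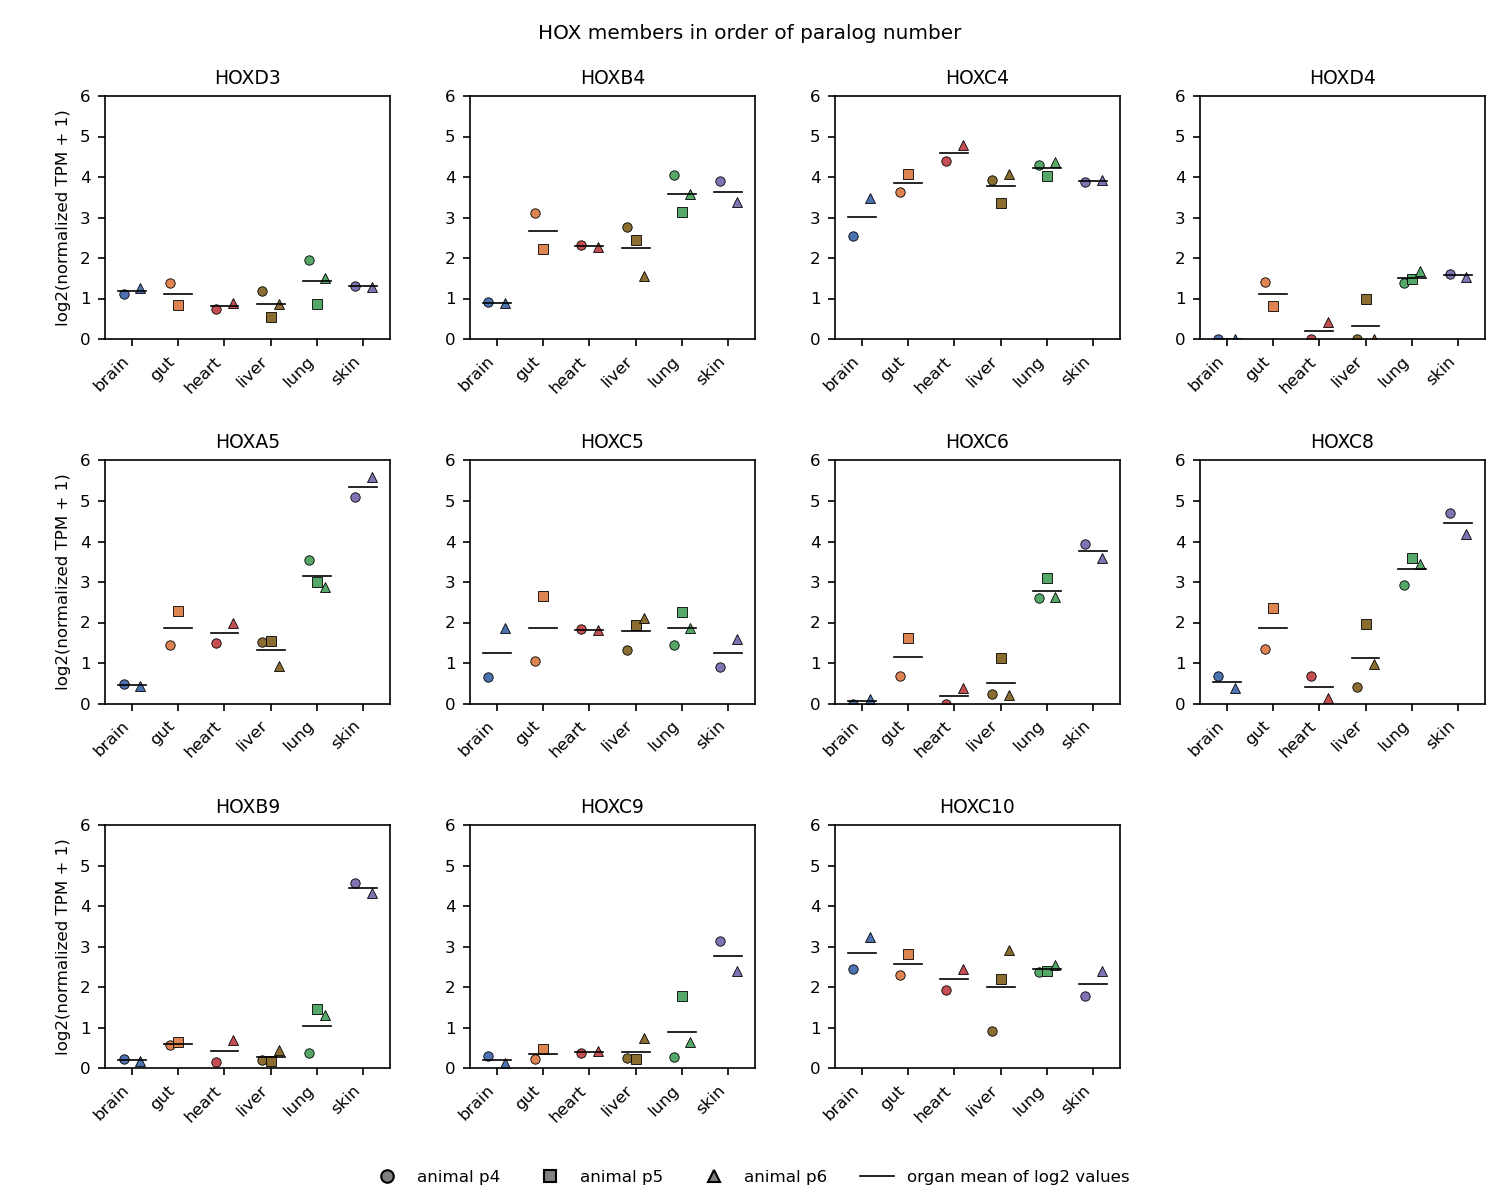
Levels of 11 of the 12 HOX members in order of position number, as log2(normalized TPM + 1) by organ, with a point for each sample and a bar for the organ mean of the log2 values. HOXB9 and HOXC9 are high in skin, HOXA5, HOXC6 and HOXC8 in skin and then lung, and HOXC4 and HOXC10 are present in all organs.

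Several HOX genes share assembly components (HOXA5 with HOXB4, and HOXB9 with HOXC6), and HOXB4, HOXC4 and HOXC10 are each named on 2 assembled genes. The second copies measured at most 5.44, 6.14 and 6.93 normalized TPM, so that the levels of these 3 genes are uncertain by that amount. Of 8 listed partners of HOX and MEIS proteins, 4 were tested, and 2 were higher in brain, against 11.2% of all genes tested. Among them was PBX2 with 11.6 and 5.10 in brain, against 0.697 to 2.62 elsewhere (1.76, standard error 0.32, adjusted p = 0.00133). Of 21 listed Polycomb and Trithorax regulators, which keep HOX clusters silent or active, 10 were tested. JARID2, a subunit of a Polycomb complex, was higher in brain with 144 and 56.1, against 2.24 to 6.73 elsewhere (4.31, adjusted p = 5.93e-07), as was ASH1L, which keeps genes active, while PHC2, a subunit of another Polycomb complex, was lower with 4.03 and 4.45 in brain, against 9.59 to 20.7 elsewhere (-1.40, adjusted p = 0.00321). In gut, liver and lung JARID2 and ASH1L were lower.

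Other regulators of organ identity outside these families were also examined, on a list written with earlier results of these data known. Of 58 listed, 22 were tested, with 5 higher in brain, 2 in heart and 1 each in gut, lung and skin. Of all genes tested, 11.2%, 0.723%, 1.86%, 0.821% and 1.94% were higher in these organs, in that order. In gut, liver and lung together, 3 of the listed genes were higher and 9 lower, against 5.04% and 6.66% of all genes. CDX1, the homeobox factor of the intestine, measured 258 and 269 in gut and at most 0.849 elsewhere. NKX2-1, a factor of lung and thyroid, measured 11.03, 9.14 and 5.84 in lung and at most 1.31 elsewhere. TP63, the factor of stratified epithelia, measured 63.4 and 34.2 in skin and at most 6.04 elsewhere, and ZIC1, a neural zinc finger factor, 64.8 and 113 in brain and at most 2.40 elsewhere.

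In all, 20 members passed none of these tests. FOXJ2, a widely active forkhead gene, measured 8.23 to 30.4 and passed the F-test alone (adjusted p = 0.0406). FOXP1, a forkhead factor of lung, heart and lymphocytes, measured 13.9 to 49.8 in all samples, and its relative FOXP2 0.190 to 2.30. SOX18, a factor of vessel lining, stayed between 0.917 and 2.06, and SOX6, of red cells and cartilage, between 0 and 2.40. SOX8 was highest in brain at 0.726 and 0.852, against 0.172 to 0.510 elsewhere, with an adjusted p of 0.0221 but a difference of 0.48. It met the minimum through brain only, so this difference follows in part from the minimum itself. FOXD3 (neural crest), FOXK1 (a relative of FOXK2) and FOXH1 (a partner of nodal signalling in the embryo) measured at most 1.41, 8.72 and 7.89, and TBXAS1 0.909 to 2.06. On the organ lists of known regulators, 9 of 12 brain members were highest in brain and 7 were called there, against 29.2% and 11.2% of all genes tested. Of 8 skin members, 6 were highest in skin and 2 called (DLX3 and FOXI1), against 15.1% and 1.94%. Of 7 gut members, 3 were highest in gut and 1 called (HNF4G), against 17.3% and 1.86%. For liver and lung 2 of 5 and 2 of 8 were highest in their organ, against 12.6% and 12.1%, and none was called. For heart 0 of 4 were highest there, against 13.7%, and none was called. The brain counts include LHX5 and SOX8, and the skin count includes TBX18, which met the minimum only through that organ. Their part of these counts follows in part from the minimum itself. These lists were written with earlier results of these data known, so the counts are a description and no test.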

How the data were processed

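RNA of 14 organ samples from 3 olms was sequenced after poly(A) selection. The authors trimmed reads with Cutadapt and Trimmomatic, mapped them with bwa mem to their hybrid assembly, reduced to its longest transcript per annotated gene, counted them with featureCounts and deposited TPM. How TPM were computed, and whether reads were merged by molecular identifier, is not given in the sources used here. Symbols come from the authors' eggNOG-mapper annotation. A TPM keeps no read depth, so errors are the spread between samples, each from a separate animal within an organ.

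From the deposited TPM, median-ratio scaled values were taken as log2(value + 1). The 16317 genes with at least 1 TPM in 2 samples were fitted in limma 3.58.1 (R 4.3.3, trended variances), with p-values adjusted by Benjamini-Hochberg over all of them. Members were called higher or lower where the adjusted p was under 0.05 and the log2 fold change beyond 1. HOX sums have no test. The procedure was tested on simulated data. Figures were drawn with matplotlib 3.10.9.

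The members and gene lists were chosen with earlier results of these data known. Named were the 8 members with the largest fold change of those called higher in an organ without overlap, HOX genes, the most abundant member of each family, members of the organ lists and members called lower, and of other lists the most abundant or most changed genes. SOX4, TBX19, FOXD2, FOXH1, FOXD3, FOXJ2, FOXK1 and PHC2 were named after their values were seen. So were the second SOX3 copy and the p5 values of HOXC6 and HOXC8. Samples of the same animal form pairs, and same-numbered samples correlated by -0.03 to 0.39 (median 0.16, 28 pairs by title) in their deviations from organ means. Alternatives were other pseudocounts, no filter, TPM as deposited, quantile normalization, the animal as a block, all copies of a symbol, a model of 6 organ means and each sample left out. Of the 59 members, 3 are counted but not reported singly here.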

Additional observations from a re-analysis of the deposited data

How the results depend on the processing

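For 52 named members, 1240 values under alternatives were compared, each in the organ of the member's highest mean. Of these, 1175 kept their direction and their side of the threshold, 18 lost the call, 44 gained it and 3 turned. Those that turned were HOXD3 in lung (-0.13 with TPM as deposited), TBX3 in liver (-0.016 with TPM as deposited) and HOXC5 in gut (-0.57 to 1.04 when 1 sample was left out). The lower calls in brain and the test of gut, liver and lung are not among these values. Of 25 settings, 14 ended the lower call of HOXC4 in brain and 5 that of HOXB4. Calls in the test of gut, liver and lung were lost in 0 to 8 settings. With a pseudocount of 5, 0 members were lower in brain, against 2.12% of all genes. In gut, liver and lung 3 were then higher and 8 lower, against 3.33% and 3.41%. With TPM as deposited 23 were higher and 0 lower in brain, against 40.3% and 0.165% of all genes. The higher calls were then 100% of the calls of members in brain, against 81.8% with scaling. Without scaling the median of all genes shifted by -0.52 for lung, by -0.33 for liver, by 0.26 for heart, and by -0.58 for the 3 endodermal organs against the rest. With quantile normalization, which moved it by -0.14 in brain, 1 was higher in lung. In the model of 6 organ means the higher members numbered 16 for brain, 7 for gut, 3 for heart, 3 for liver, 6 for lung and 11 for skin, and 9 were lower in brain, a model whose error leaves out the spread between organs. Leaving out 1 sample of another organ gave 9 to 11 higher in brain, against 10.5% to 11.4% of all genes, and 1 to 2 lower, against 2.97% to 3.71%. It gave 3 higher in gut, against 1.59% to 2.12%, and 5 to 6 in skin, against 1.71% to 2.55%. In lung, 0 to 1 were higher without any 1 sample (1 without gut p5, against 0.826%). Leaving out a brain, gut or skin sample left that organ with 1 sample. Fewer of all genes were then called in it, so counts of members are not given. With the replicate block by the supplement's animals 1 was lower in brain, since HOXC4 did not pass, and with the replicate block by title 8 were higher in brain, since SOX5 did not pass. The block moved no other count by over 1.5 times. After the data were seen, the p6 brain and p6 heart samples were left out together, which gave 1 lower in brain and 3 higher in gut, liver and lung, and the p5 and p6 lung samples together, which gave 2 higher in liver (FOXS1 and FOXA2) and 1 lower in brain. The cause of these shifts was not tested. Limits are that 4 organs have 2 samples, and that differences of genes near 1 TPM are understated on this scale.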
